A study of Mus musculus with 8 samples.

Results

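The genes described here encode the hepatic transporters of bile acids and other organic anions, measured in mouse liver before and after partial hepatectomy. They are 10 genes, Slc10a1, Slco1a1, Slco1a4, Slco1b2, Abcb11, Abcb4, Abcc2, Atp8b1, Abcc3 and Abcc4, and every probe set annotated with exactly 1 gene symbol from this list was taken. That gave 16 of the 45037 probe sets, and 10 of the 18193 genes that have such a probe set. All 16 probe sets and all 10 genes lay above the level set for testing, which left 14450 genes in the fit.

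Total RNA from livers of male C57BL/6 mice aged 7 to 10 weeks was hybridised to Affymetrix oligonucleotide arrays. The groups were Tob1 null mice 24 h after removal of the median and left lateral lobes, Tob1 null mice at 0 h, wild type mice 24 h after the same operation, and wild type mice at 0 h. Every group was measured on 2 arrays that held separate pools of RNA from 3 animals, so n = 2 pools in every group and the spread between single animals was not measured. No group had a sham operation, so anaesthesia, surgery and time after it cannot be told apart from the loss of liver mass. The Tob1 null animals came from a germline line, so the gene was targeted in every cell of the body and not in hepatocytes alone. The comparison of 24 h with 0 h asks how the transporter genes respond to the operation, and the comparison of genotypes asks whether they respond otherwise in the Tob1 null line. Values are normalised log2 signals, so a difference of 1 is a doubling, and levels are compared within a probe set only.

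Tob1 encodes an antiproliferative protein of the Tob/BTG family. Its brighter probe set read 10.66 and 10.58 in the arrays labelled Tob1 null at 24 h, against 9.87 and 10.20 in wild type at 24 h, and 11.10 and 11.03 in those labelled Tob1 null at 0 h, against 10.46 and 10.53 in wild type at 0 h. It was thus higher in the arrays labelled Tob1 null at both times, by 0.59 ± 0.16 at 24 h (adjusted p = 0.353, limma) and 0.57 ± 0.16 at 0 h (adjusted p = 0.421, limma). The other probe set was lower in them, by −1.30 ± 0.65 at 24 h and −1.25 ± 0.65 at 0 h, and passed the test at neither time. It was dim, near the level for testing of 3.60. At 24 h it read 2.78 and 3.83 in the arrays labelled Tob1 null, against 4.27 and 4.96 in wild type. At 0 h it read 2.65 and 4.06 against 5.19 and 4.02, so the genotypes overlapped. Whether these probes lie in the deleted part of the gene was not examined, so the arrays are called null-labelled from here on, and every direction between the genotypes rests on those labels. Correlations between the arrays of a group were 0.949 to 0.960 over all 45037 probe sets, including those below the level for testing. Hepatocyte markers, all 7 of 7 above the level for testing, summed to 15.91 to 15.98 in null-labelled liver at 24 h, 15.89 to 15.91 in null-labelled liver at 0 h, 15.97 to 16.04 in wild type at 24 h and 15.85 to 15.95 in wild type at 0 h (log2 of the sum). The tissue was thus liver by its defining markers on all 8 arrays.

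Bile acids circulate between gut and liver. At the sinusoidal membrane, which faces the blood, hepatocytes take them up through the sodium-dependent carrier Slc10a1 (Ntcp) and the sodium-independent organic anion carriers of the Slco family. At the canalicular membrane, which faces the bile, ATP-driven pumps export bile salts (Abcb11), phospholipid (Abcb4) and conjugated anions (Abcc2), and the flippase Atp8b1 keeps the outer leaflet intact. A basolateral route through Abcc3 and Abcc4 returns bile acids and conjugates to the blood, and is best known for its use in cholestasis.

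After hepatectomy the uptake carriers Slc10a1 and Slco1a1 fell in both genotypes, the bile salt pump Abcb11 fell in wild type liver, and the anion pump Abcc2 fell in null-labelled liver. Over 18 alternative settings and arrays left out, Slco1a1 was called in 16 in null-labelled liver and 14 in wild type, Slc10a1 in 6 in null-labelled liver and 5 in wild type, Abcb11 in 12 in wild type, and Abcc2 in 6 in null-labelled liver. In null-labelled liver 3 of the 10 genes fell and none rose (7.23% of all genes tested fell and 7.45% rose). In wild type liver 3 of the 10 fell and none rose (5.08% of all genes tested fell and 4.13% rose). With both genotypes averaged, 4 of the 10 fell, Slc10a1, Slco1a1, Abcb11 and Abcc2, and none rose (15% of all genes tested fell and 13.8% rose). The median log2 difference over the 10 genes was −0.63 in null-labelled liver, −0.53 in wild type liver and −0.40 averaged, where the median of all genes tested was −0.04 in null-labelled liver, −0.03 in wild type and −0.04 averaged. In each genotype 8 of the 10 differences were negative, and those of Abcb4 and Atp8b1 were positive. A gene is called here where its p, adjusted by Benjamini and Hochberg's method for the 14450 genes tested, was under 0.05 in a limma fit in which all 4 groups share 1 estimate of the spread. In bulk liver, fewer cells of a type and less RNA per cell cannot be told apart.

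**Figure D1:**
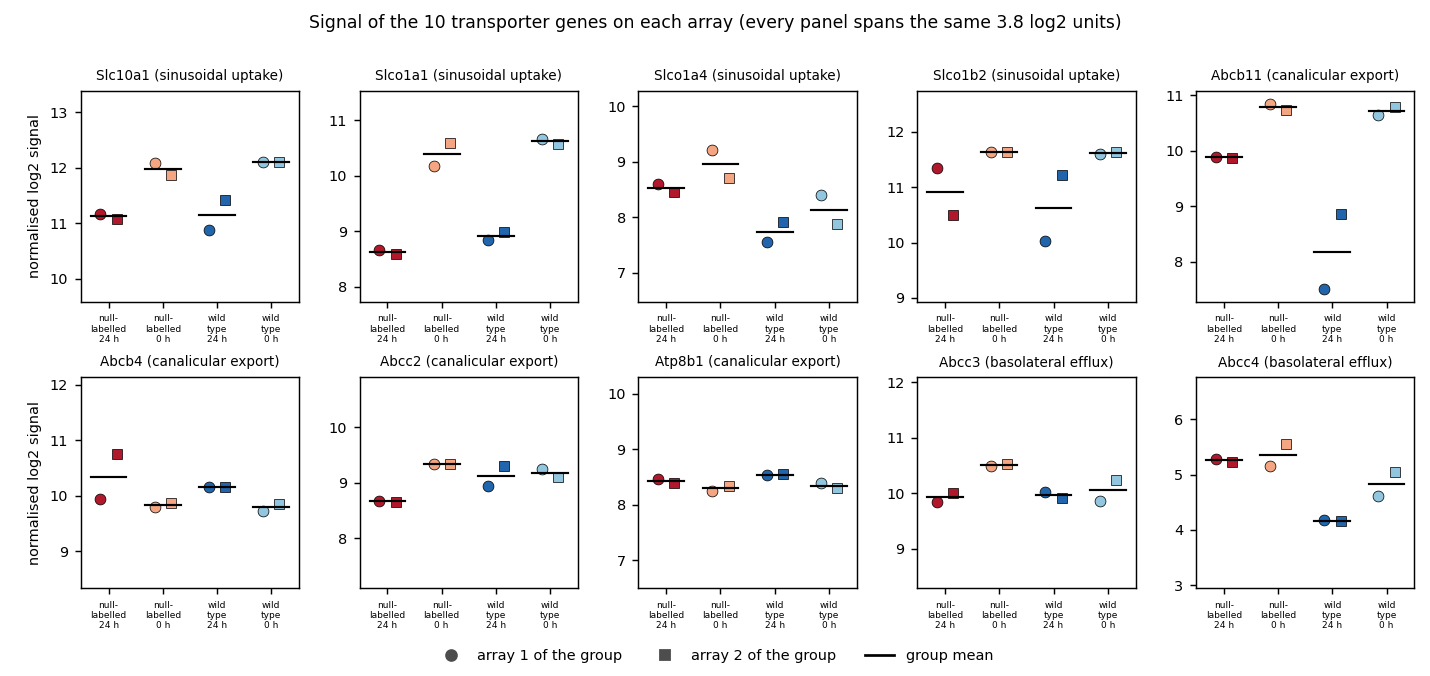
Normalised log2 signal (vertical axis) of the probe set that stands for each of the 10 genes, in null-labelled liver at 24 h, null-labelled liver at 0 h, wild type liver at 24 h and wild type liver at 0 h (horizontal axis); points are the 2 arrays of a group and lines are group means. Slco1a1 was lower on all 4 arrays at 24 h than on all 4 arrays at 0 h, and the 2 wild type arrays at 24 h stood 1.34 apart for Abcb11.

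**Figure D2:**
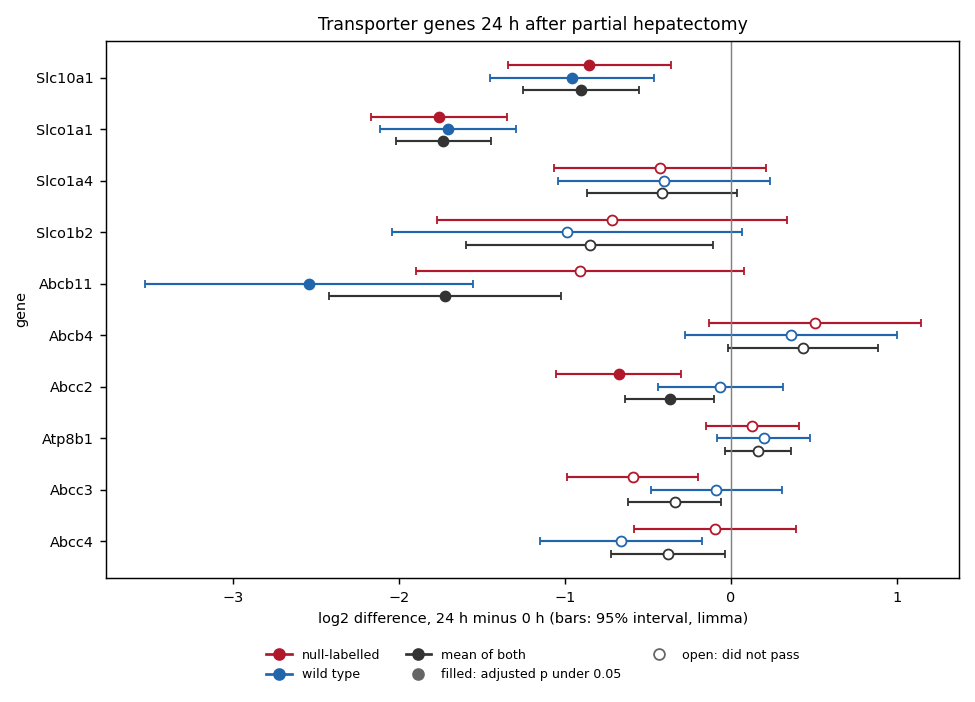
Log2 difference, 24 h minus 0 h (horizontal axis), of each gene (vertical axis) in null-labelled liver, in wild type liver and averaged; bars are 95% intervals from limma, and filled points passed an adjusted p of 0.05. Slc10a1 and Slco1a1 passed in both genotypes, Abcb11 in wild type and averaged, and Abcc2 in null-labelled liver and averaged.

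The 250 bases before the start site of the 4 genes that fell with both genotypes averaged are shown, because sites for nuclear receptors and STAT factors are the elements through which bile acid and hormone signals are known to act on such genes. They are from RefSeq on GRCm38.p6, 5′ to 3′ on the gene's strand, at chr12:80968706-80968955 (- strand) for Slc10a1, chr6:141946963-141947212 (- strand) for Slco1a1, chr2:69342617-69342866 (- strand) for Abcb11 and chr19:43782058-43782307 (+ strand) for Abcc2. Capitals mark the nuclear receptor hexamer AGGTCA on either strand (read as TGACCT on the other).
Slc10a1: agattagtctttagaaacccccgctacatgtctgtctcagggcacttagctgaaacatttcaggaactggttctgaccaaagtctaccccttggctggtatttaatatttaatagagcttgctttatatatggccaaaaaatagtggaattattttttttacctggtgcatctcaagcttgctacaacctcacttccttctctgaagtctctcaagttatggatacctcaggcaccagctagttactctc
Slco1a1: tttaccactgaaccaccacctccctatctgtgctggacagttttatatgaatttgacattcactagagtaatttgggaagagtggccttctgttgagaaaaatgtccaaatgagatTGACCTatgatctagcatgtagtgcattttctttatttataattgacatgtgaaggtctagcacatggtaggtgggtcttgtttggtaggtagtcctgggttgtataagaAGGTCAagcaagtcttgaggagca
Abcb11: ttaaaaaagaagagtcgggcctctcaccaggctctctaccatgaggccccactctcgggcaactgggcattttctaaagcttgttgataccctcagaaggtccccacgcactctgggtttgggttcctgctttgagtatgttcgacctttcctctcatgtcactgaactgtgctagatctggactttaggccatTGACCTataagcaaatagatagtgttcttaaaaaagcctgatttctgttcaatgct
Abcc2: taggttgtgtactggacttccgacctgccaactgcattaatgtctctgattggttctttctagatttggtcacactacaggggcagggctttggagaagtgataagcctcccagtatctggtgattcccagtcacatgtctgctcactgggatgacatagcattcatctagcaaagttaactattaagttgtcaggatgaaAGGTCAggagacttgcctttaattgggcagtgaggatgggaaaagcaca
The Slco1a1 window held 2 hexamers, with ends 134 and 24 bases before the start site. The Abcb11 and Abcc2 windows held 1 each, 56 and 49 bases before it, and the Slc10a1 window printed here held 0. RefSeq has a second start for Slc10a1, and its window held 1 hexamer, 87 bases before that start. The hexamer was present in 14% of the 32851 promoter windows of the same length. The Slc10a1 window held 1 match to TTCNNNGAA, the letters of a STAT site on either strand, 53 bases before the start, and 7.02% of all windows held one. The inverted repeat AGGTCANTGACCT, a form that the bile acid receptor Nr1h4 is known to bind, contains the hexamer. Only these exact letters were searched for, and they were found in 2 of the 32851 windows. No window of the 8 members with an entry held them. In the Abcb11 window the hexamer follows the letters aggccat, so that stretch differs from the repeat in 1 letter. Near matches of this kind were not counted over all windows, so the absence of the exact letters says little. Of the other members, Slco1b2 had 1 hexamer, and Slco1a4, Abcb4 and Abcc4 had 0. The start sites of these windows do not lie at the 5′ end of the gene as RefSeq gives it. Abcc3 and Atp8b1 had no entry among the promoter windows and were not searched. These matches describe letters in a window and are not measured binding.

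Among the sinusoidal uptake carriers, Slc10a1, which takes up conjugated bile acids with sodium, read 11.17 and 11.09 in null-labelled liver at 24 h, against 12.09 and 11.88 in null-labelled liver at 0 h. In wild type liver it read 10.87 and 11.42 at 24 h, against 12.10 and 12.10 at 0 h. All 4 arrays at 24 h lay below all 4 arrays at 0 h, where the times did not overlap for 31.5% of all genes. The genotypes overlapped at 24 h. The log2 difference was −0.85 ± 0.20 in null-labelled liver (adjusted p = 0.0431, limma) and −0.96 ± 0.20 in wild type (adjusted p = 0.0418, limma). Averaged, it was −0.90 ± 0.14 (adjusted p = 0.0088, limma), which is 53.4% of the 0 h level. The averaged fall passed the test without any 1 of the 8 arrays, between −1.03 and −0.76. Within a genotype the call was less stable. In null-labelled liver it was kept in 2 of the 8 fits that left out 1 array, those without a wild type array at 24 h, with adjusted p up to 0.183 in the others by limma. In wild type it was kept in 1 of the 8, that without the second array of this genotype at 24 h, with adjusted p up to 0.166 in the others by limma. The call in each genotype was also lost with median centring, without a filter and with the mean of the gene's probe sets.

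Slco1a1 encodes an organic anion carrier that is male-predominant in mouse liver. It read 8.66 and 8.59 in null-labelled liver at 24 h, against 10.18 and 10.59 in null-labelled liver at 0 h, and 8.85 and 8.98 in wild type at 24 h, against 10.66 and 10.58 in wild type at 0 h. The lowest array at 0 h stood more than 1 log2 unit above the highest at 24 h. The log2 difference was −1.76 ± 0.17 in null-labelled liver (adjusted p = 0.0109, limma) and −1.70 ± 0.17 in wild type (adjusted p = 0.0146, limma). Averaged, it was −1.73 ± 0.12 (adjusted p = 0.0021, limma), or 30.1% of the 0 h level, and it stayed between −1.83 and −1.63 without any 1 array. The responses of the 2 genotypes differed by −0.05 ± 0.24, with a 95% interval of −0.63 to 0.53.

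Slco1a4 and Slco1b2, the other members of this family, did not pass the test. Slco1a4, which carries bile acids and cardiac glycosides, read 8.60 and 8.45 in null-labelled liver at 24 h, against 9.20 and 8.70 in null-labelled liver at 0 h, and 7.54 and 7.91 in wild type at 24 h, against 8.40 and 7.87 in wild type at 0 h. The times overlapped in wild type, and the averaged difference was −0.42 ± 0.19 (adjusted p = 0.144, limma). Slco1b2, the mouse relative of the human carriers of unconjugated bile acids and bilirubin, read 11.33 and 10.50 in null-labelled liver at 24 h, against 11.63 and 11.63 in null-labelled liver at 0 h. In wild type liver it read 10.03 and 11.21 at 24 h, against 11.60 and 11.62 at 0 h. Its 4 arrays at 0 h lay between 11.60 and 11.63, while the 2 arrays at 24 h were 0.84 apart in null-labelled and 1.18 apart in wild type liver. The averaged difference was −0.85 ± 0.30 (adjusted p = 0.0847, limma). Dropping the second of the wild type arrays at 24 h gave −1.14 (adjusted p = 0.026, limma), and dropping the first gave −0.56 (adjusted p = 0.153, limma). The 3 Slco genes lie in a single cluster on chromosome 6, in the order Slco1b2, Slco1a4, Slco1a1.

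Several probe sets were available for 3 of the carriers. In a fit over all 30525 probe sets, both sets of Slco1a1 fell in null-labelled liver (4.72% of probe sets fell), both fell in wild type (2.7% fell) and both fell averaged (11.4% fell). The dimmer Slco1a1 set read 8.27 and 7.99 in null-labelled liver at 24 h, against 9.29 and 9.83 in null-labelled liver at 0 h, and 7.97 and 8.50 in wild type at 24 h, against 10.12 and 9.78 in wild type at 0 h. Both sets of Slc10a1 fell when the genotypes were averaged, by −0.90 (adjusted p = 0.012, limma) and −0.79 (adjusted p = 0.020, limma), and neither passed in this fit within a single genotype. The dimmer Slc10a1 set, like the brighter one, had its lowest value, 10.45, on the first wild type array at 24 h. The 5 sets of Slco1b2 disagreed: the averaged difference was −0.85 for the brightest, −0.60 and −0.52 for the next brightest, −0.15 and 0.04 for the dimmest pair, and none passed. The dimmest pair stayed between 4.31 and 5.09 on all 8 arrays. Of the brighter sets, 1 carries the suffix of probes that can match several transcripts, as does the only Abcc2 set. In the fit over all probe sets that Abcc2 set did not pass in null-labelled liver (adjusted p = 0.0536, limma) or averaged (adjusted p = 0.0671, limma).

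**Figure D3:**
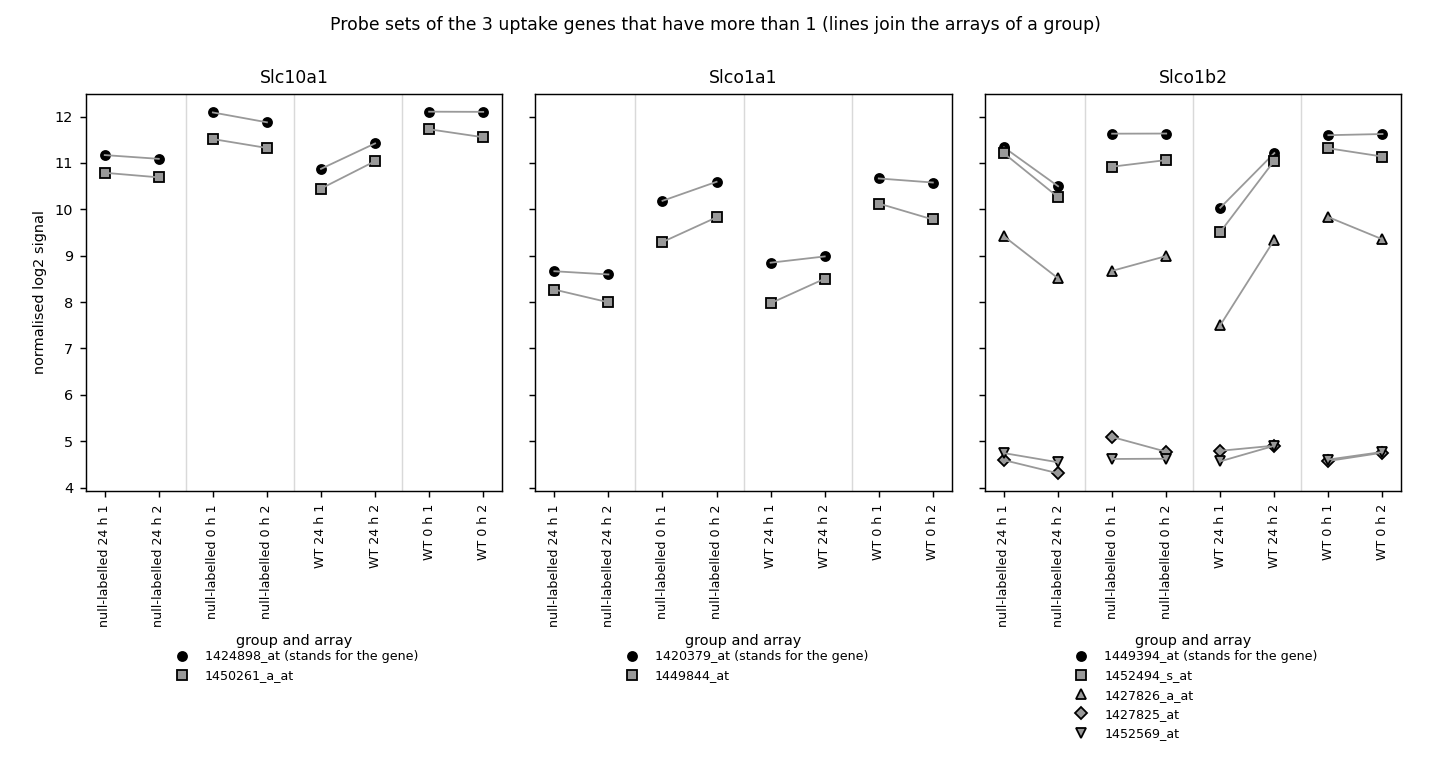
Normalised log2 signal (vertical axis) of each probe set of Slc10a1, Slco1a1 and Slco1b2 on the 8 arrays (horizontal axis, null-labelled at 24 h and 0 h, then wild type at 24 h and 0 h); lines join the 2 arrays of a group. The 2 sets of Slc10a1 and of Slco1a1 were lower at 24 h in both genotypes, and the 3 brighter Slco1b2 sets were all lowest on the first wild type array at 24 h.

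Among the canalicular genes, Abcb11, the bile salt export pump that drives bile acid dependent bile flow, read 9.90 and 9.87 in null-labelled liver at 24 h, against 10.85 and 10.74 in null-labelled liver at 0 h. In wild type liver it read 7.52 and 8.86 at 24 h, against 10.65 and 10.80 at 0 h. All arrays at 24 h lay below all arrays at 0 h, where the times did not overlap for 31.5% of all genes. Both wild type arrays at 24 h lay below both null-labelled ones, where the genotypes did not overlap for 40.7% of all genes. The log2 difference was −2.54 ± 0.40 in wild type (adjusted p = 0.0236, limma), or 17.2% of the 0 h level, with a 95% interval of −3.53 to −1.55. In null-labelled liver it was −0.91 ± 0.40, or 53.3% of the 0 h level, with an interval of −1.90 to 0.08, and did not pass (adjusted p = 0.175, limma). Averaged, it was −1.72 ± 0.29 (adjusted p = 0.0099, limma), and this passed without any 1 array, between −2.07 and −1.40.

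The size of the Abcb11 response in wild type liver depended on which array at 24 h was used. It was −1.88 without the first (adjusted p = 0.045, limma) and −3.22 without the second (adjusted p = 0.011, limma). It was −2.59 and −2.46, with adjusted p of 0.115 and 0.117 by limma, when the first or the second of the wild type arrays at 0 h was dropped. With one or the other null-labelled array at 0 h dropped it was −2.53 both times, with adjusted p of 0.054 and 0.053 by limma. In null-labelled liver the same gene passed, at −0.92 and −0.91 (adjusted p = 0.026 in both, limma), when the first or the second wild type array at 24 h was left out of the shared estimate of the spread.

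Abcc2, which exports conjugated bilirubin and glutathione conjugates, read 8.67 and 8.67 in null-labelled liver at 24 h, against 9.34 and 9.35 in null-labelled liver at 0 h. In wild type liver it read 8.94 and 9.30 at 24 h, against 9.25 and 9.12 at 0 h. The null-labelled arrays at the 2 times were far apart, while the wild type arrays overlapped. The times did not overlap for 63% of all genes in null-labelled liver and 62.1% in wild type. The log2 difference was −0.68 ± 0.15 in null-labelled liver (adjusted p = 0.0395, limma) and −0.06 ± 0.15 in wild type (adjusted p = 0.817, limma), with a 95% interval of −0.44 to 0.31 in wild type. Averaged, it was −0.37 ± 0.11, or 77.4% of the 0 h level, and passed narrowly (adjusted p = 0.0498, limma). The averaged call was kept only when the second of the wild type arrays at 24 h was dropped (−0.46, adjusted p = 0.028, limma), and leaving out any of the other 7 arrays gave adjusted p of 0.089 to 0.142 by limma. In null-labelled liver the call was kept without either wild type array at 24 h, and adjusted p was 0.072 to 0.157 by limma without any of the other 6.

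Abcb4 and Atp8b1, which handle phospholipid and not bile acid, had positive differences that did not pass. Abcb4, the floppase that delivers phosphatidylcholine to bile, read 9.93 and 10.75 in null-labelled liver at 24 h, against 9.80 and 9.87 in null-labelled liver at 0 h, and 10.16 and 10.15 in wild type at 24 h, against 9.73 and 9.86 in wild type at 0 h. Every array at 24 h was above every array at 0 h, where the times did not overlap for 31.5% of all genes. The averaged difference was 0.43 ± 0.18 (adjusted p = 0.130, limma). The second null-labelled array at 24 h stood 0.81 above the first, and without the first the averaged difference was 0.64 (adjusted p = 0.013, limma) and that in null-labelled liver 0.91 (adjusted p = 0.034, limma). Without the second array those differences were 0.23 (adjusted p = 0.123, limma) and 0.10 (adjusted p = 0.684, limma). Atp8b1, an aminophospholipid flippase, lay between 8.25 and 8.56 on all 8 arrays, at 8.46 and 8.39 in null-labelled liver at 24 h, against 8.25 and 8.35 in null-labelled liver at 0 h, and 8.54 and 8.56 in wild type at 24 h, against 8.40 and 8.30 in wild type at 0 h. Its averaged difference was 0.16 ± 0.08 (adjusted p = 0.179, limma).

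The basolateral efflux pumps did not pass in either genotype or averaged. Abcc3, a carrier of glucuronides, read 9.85 and 10.00 in null-labelled liver at 24 h, against 10.50 and 10.54 in null-labelled liver at 0 h, and 10.02 and 9.92 in wild type at 24 h, against 9.86 and 10.24 in wild type at 0 h. The null-labelled groups did not overlap and the wild type groups did. Over all genes tested, 63% did not overlap in null-labelled liver and 62.1% in wild type. The Abcc3 differences were −0.59 ± 0.16 (adjusted p = 0.0601, limma) in null-labelled and −0.09 ± 0.16 (adjusted p = 0.757, limma) in wild type liver. Abcc4, which carries bile acids together with glutathione as well as cyclic nucleotides, was dim and read 5.28 and 5.23 in null-labelled liver at 24 h, against 5.15 and 5.54 in null-labelled liver at 0 h. In wild type liver it read 4.17 and 4.17 at 24 h, against 4.61 and 5.05 at 0 h. Here it was the wild type groups that did not overlap, with differences of −0.10 ± 0.20 (adjusted p = 0.771, limma) in null-labelled and −0.66 ± 0.20 (adjusted p = 0.0897, limma) in wild type liver. The level for testing was 3.60, so the lowest Abcc4 values lay less than 1 log2 unit above it.

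By role, 2 of the 4 uptake carriers fell in each genotype and averaged, with medians of −0.78 in null-labelled liver, −0.97 in wild type and −0.88 averaged. Among all genes tested, 7.23% fell in null-labelled liver, 5.08% in wild type and 15% averaged. Of the 4 canalicular genes, 1 fell in null-labelled liver, 1 other fell in wild type and both fell averaged, with medians of −0.27 in null-labelled liver, 0.07 in wild type and −0.10 averaged. Neither basolateral gene was called, and their medians were −0.34 in null-labelled liver, −0.37 in wild type and −0.36 averaged. These counts depended on single arrays. The 3 genes called in wild type liver became 0 without either wild type array at 0 h, Abcb11 alone when the first of the wild type arrays at 24 h was dropped, and Slco1a1 alone without either null-labelled array at 0 h. The 3 called in null-labelled liver became 0 when the second of the null-labelled arrays at 0 h was dropped, and Slco1a1 alone when its partner, the second of the null-labelled pair at 24 h, or either wild type array at 0 h was dropped. With the first of the null-labelled pair at 24 h dropped, Slco1a1 fell and Abcb4 rose.

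The wild type arrays at 24 h differed from each other by more than 0.3 for 5 of the 10 genes, the null-labelled pair at 24 h for 2, the null-labelled pair at 0 h for 3 and the wild type pair at 0 h for 3. The first array was the lower one for 7 of the 10 in the wild type pair at 24 h, and likewise for 7 of the 10 in the null-labelled pair at 0 h. Over all genes the median gap was 0.224 in the wild type pair at 24 h and 0.264 in the null-labelled pair at 24 h, so the wild type pair was not the more discordant one over the whole array. Markers of other cell types moved both ways within the wild type pair at 24 h. The first array was the lower one for 5 of 6 biliary, 5 of 8 Kupffer cell and leucocyte, and 5 of 6 stellate genes measured. It was the lower one for 4 of 6 endothelial genes, 3 of 4 genes of other organs and blood, and 3 of 7 hepatocyte genes. On the first and the second array, the neutrophil gene S100a8 read 8.13 and 5.57, the smooth muscle and myofibroblast gene Acta2 8.73 and 6.05, the biliary gene Sox9 7.71 and 6.59, and the stellate cell gene Lrat 4.54 and 6.63. These 4 were picked for their large gaps after their values were seen, and the first 3 run against most genes of their lists. Wide gaps were also found in the endothelial genes Lyve1, at 8.26 and 6.99, and Kdr, at 6.64 and 7.64. The part of any of these genes in the values of the transporters was not tested.

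Summed levels of the marker lists moved with the groups as well. Each sum took every gene of its list on the array, also those below the level for testing. The brightest genes weigh most in a sum, and in the biliary list these were Cdh1 and Aqp1. The biliary genes Krt7, Krt19 and Epcam read between 3.05 and 4.96 on all 8 arrays and add little to it. Which cells gave the Cdh1 and Aqp1 signal was not tested, so this sum is not a measure of biliary cells. The Kupffer cell and leucocyte list, 8 of 9 genes measured with the T cell gene Cd3e below the level for testing, summed to 10.17 to 10.26 in null-labelled liver at 24 h, 9.63 to 9.66 in null-labelled liver at 0 h, 10.01 to 10.04 in wild type at 24 h and 9.80 to 10.00 in wild type at 0 h. The biliary list, 6 of 7 with Cftr below that level, summed to 10.35 to 10.73 in null-labelled liver at 24 h, 9.74 to 9.97 in null-labelled liver at 0 h, 10.26 to 10.48 in wild type at 24 h and 10.31 to 10.42 in wild type at 0 h. The stellate list, 6 of 6, summed to 8.88 to 8.95 in null-labelled liver at 24 h, 9.43 to 9.84 in null-labelled liver at 0 h, 9.15 to 9.65 in wild type at 24 h and 9.70 to 9.99 in wild type at 0 h. These sums do not speak for every gene of a list. With both genotypes averaged, 3 of the 8 Kupffer cell and leucocyte genes rose and 3 fell, and in wild type 5 of the 8 were lower at 24 h and 1 rose. Of the 6 stellate genes, 4 were lower at 24 h in each genotype, and 3 fell averaged. Among all genes tested, 13.8% rose and 15% fell averaged, and 4.13% rose in wild type. The endothelial list, 6 of 6, summed to 10.03 to 10.23 in null-labelled liver at 24 h, 9.76 to 10.06 in null-labelled liver at 0 h, 9.88 to 10.13 in wild type at 24 h and 10.31 to 10.33 in wild type at 0 h. A list of genes of other organs and blood, 4 of 7 with Cpa1, Myh7 and Hba-a1 below that level, summed to 10.99 to 11.01 in null-labelled liver at 24 h, 10.96 to 11.19 in null-labelled liver at 0 h, 11.52 to 11.54 in wild type at 24 h and 11.31 to 11.48 in wild type at 0 h, lower in null-labelled than in wild type liver at both times. The 3′ minus 5′ signal of actin, a measure of RNA integrity, was 1.22 to 1.32 in null-labelled liver at 24 h, 1.54 to 1.59 in null-labelled liver at 0 h, 0.91 to 1.03 in wild type at 24 h and 1.04 to 1.40 in wild type at 0 h. The part of any of these in the transporter values was not tested.

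Between the genotypes, none of the 10 genes passed at 24 h (0.00692% of all genes tested passed, 1 gene), none at 0 h (0% of all genes) and none in the difference between the responses (0% of all genes), by limma. At an unadjusted p under 0.05, limma gave 4 of the 10 at 24 h, Slco1a4, Abcb11, Abcc2 and Abcc4 (11.7% of all genes), 3 at 0 h, Slco1a4, Abcc3 and Abcc4 (9.62% of all genes), and 2 in the difference between the responses, Abcb11 and Abcc2 (8.61% of all genes). The arrays of the 2 genotypes did not overlap for 6 of the 10 at 24 h (40.7% of all genes) and for 6 of the 10 at 0 h (48.1% of all genes). The median difference of the 10 genes was 0.08 at 24 h and 0.05 at 0 h, where that of all genes was 0.01 at both times.

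The largest genotype difference among the 10 was that of Abcb11 at 24 h, 9.90 and 9.87 in null-labelled liver against 7.52 and 8.86 in wild type. It was 1.70 ± 0.40, with a 95% interval of 0.71 to 2.69 and an adjusted p of 0.258 by limma, and 0.07 ± 0.40 at 0 h. The 24 h value was 1.03 when the first of the wild type arrays at 24 h was dropped and 2.38 when the second was. The difference between the responses was 1.63 ± 0.57, with an interval of 0.24 to 3.03 (adjusted p = 0.556, limma). It ranged from 0.97 to 2.31 over the alternative settings and arrays left out. Abcc2 ran the other way, −0.45 ± 0.15 at 24 h (adjusted p = 0.356, limma) and 0.16 ± 0.15 at 0 h, with a difference between the responses of −0.61 ± 0.22 and an interval of −1.14 to −0.08 (adjusted p = 0.556, limma). Its 24 h value was −0.63 when the first of the wild type arrays at 24 h was dropped and −0.27 when the second was. A lesser fall of Abcb11 and a larger fall of Abcc2 in null-labelled liver were therefore measured but not called.

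Slco1a4 was higher in null-labelled liver by similar amounts at both times, 0.80 ± 0.26 at 24 h, with an interval of 0.16 to 1.44 (adjusted p = 0.341, limma), and 0.82 ± 0.26 at 0 h, with an interval of 0.18 to 1.46 (adjusted p = 0.461, limma). The Slco1a4 arrays of the genotypes did not overlap at 24 h or at 0 h, as for 40.7% and 48.1% of all genes. Over both times the lowest null-labelled array read 8.45 and the highest wild type array 8.40. Abcc4 was also higher, by 1.08 ± 0.20 at 24 h, with an interval of 0.59 to 1.57 (adjusted p = 0.192, limma). At 0 h it was higher by 0.52 ± 0.20 (adjusted p = 0.510, limma). The Abcc4 arrays of the genotypes did not overlap at either time, with the same shares over all genes. The Abcc4 signal was dim, at 4.17 on both wild type arrays at 24 h. The Abcc4 value at 24 h ranged from 0.67 to 1.18 over the alternative settings and arrays left out. Neither Slco1a4 nor Abcc4 passed the test over all genes. For Slc10a1 the genotype difference was −0.02 at 24 h and −0.12 at 0 h, and for Slco1a1 −0.29 at 24 h and −0.23 at 0 h. These differences use the same arrays as the responses to hepatectomy and are not independent of them.

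**Figure D4:**
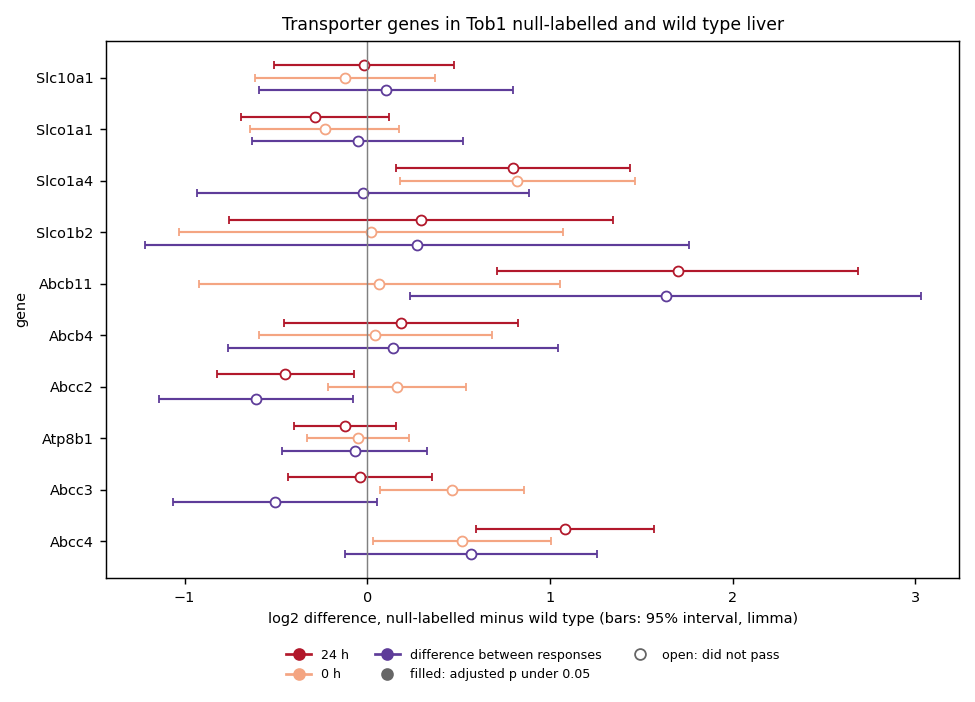
Log2 difference, null-labelled minus wild type (horizontal axis), of each gene (vertical axis) at 24 h and at 0 h, and the difference between the 2 responses; bars are 95% intervals from limma. No point passed an adjusted p of 0.05, and at 24 h the Abcb11, Slco1a4 and Abcc4 intervals lay above 0 and the Abcc2 interval below it.

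Other transporters of the hepatocyte membrane were examined as a list of 21 genes, of which 17 were tested. In null-labelled liver 4 fell and 0 rose (7.23% and 7.45% of all genes tested), and in wild type 2 fell and 0 rose (5.08% and 4.13%). Averaged, 5 fell and 1 rose (15% and 13.8%). The medians were −0.22 in null-labelled liver, −0.20 in wild type and −0.22 averaged, against −0.04, −0.03 and −0.04 for all genes. Slc47a1, the proton-coupled exporter of organic cations, fell by 2.20 in null-labelled liver, 1.77 in wild type and 1.98 averaged on the log2 scale (adjusted p = 0.0023 averaged, limma). The averaged log2 difference was −2.17 for Abcc6, an ATP-binding cassette gene whose loss in humans causes ectopic mineralisation (adjusted p = 0.0107, limma). It was −1.63 for Abcg8, a subunit of the canalicular sterol pump (adjusted p = 0.0070, limma), and −0.52 for the glucose carrier Slc2a2 (adjusted p = 0.0086, limma).

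Of 22 regulators of these genes, 20 were tested. In null-labelled liver 4 fell and 1 rose (7.23% and 7.45% of all genes tested), and in wild type 1 fell and 0 rose (5.08% and 4.13%). Averaged, 5 fell and 2 rose (15% and 13.8%). The medians were −0.16 in null-labelled liver, −0.13 in wild type and −0.20 averaged, against −0.04, −0.03 and −0.04 for all genes. Nr1h4, the nuclear receptor for bile acids that is known to activate Abcb11, did not pass, at −0.61 in null-labelled liver (adjusted p = 0.127, limma) and −0.15 in wild type (adjusted p = 0.708, limma). Nr0b2, a repressor induced by Nr1h4, averaged 9.32 in null-labelled liver at 24 h, against 8.98 in null-labelled liver at 0 h, and 7.26 in wild type at 24 h, against 8.99 in wild type at 0 h. Its responses, 0.34 ± 0.70 in null-labelled liver and −1.73 ± 0.70 in wild type, did not pass, nor did their difference of 2.07 ± 0.99 (adjusted p = 0.617, limma). Stat5b, the transducer of growth hormone signals that sustains male-specific hepatic genes in mice, fell by 1.11 in null-labelled liver, 1.32 in wild type and 1.21 averaged on the log2 scale (adjusted p = 0.0031 averaged, limma). Hnf4a, a master regulator of hepatocyte genes, averaged a difference of −0.34 (adjusted p = 0.0356, limma), Foxa2 −0.52 (adjusted p = 0.0100, limma) and Klb, the FGF co-receptor, −1.45 (adjusted p = 0.0205, limma). Nfe2l2, the transcription factor that activates antioxidant genes, rose by 0.62 averaged (adjusted p = 0.0081, limma), and Nr1i3, a xenobiotic receptor, by 1.03 (adjusted p = 0.0385, limma).

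Of 15 genes of bile acid synthesis and conjugation, all tested, 7 fell in null-labelled liver, 4 in wild type and 9 averaged, and none rose. Of all genes tested, 7.23% fell in null-labelled liver, 5.08% in wild type and 15% averaged, and 7.45%, 4.13% and 13.8% rose. The medians of the 15 were −0.75 in null-labelled liver, −0.64 in wild type and −0.68 averaged. Akr1d1, the steroid reductase of the pathway, had differences of −1.30 in null-labelled liver (adjusted p = 0.0284, limma), −2.69 in wild type (adjusted p = 0.0142, limma) and −1.99 averaged (adjusted p = 0.0030, limma). The averaged difference was −0.76 for Slc27a5, the bile acid CoA ligase, −0.75 for the sterol hydroxylase Cyp27a1, and −1.24 for Cyp2c70, which makes muricholic acids in mice, with adjusted p of 0.0033, 0.0037 and 0.0055 by limma. No gene of the 3 lists was called between the genotypes at either time or in the difference between the responses.

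The genes whose pattern over the 8 arrays was most like that of each called member were found by the smallest root mean square difference between profiles centred on their own means. For Slc10a1 they were Sepsecs and Isoc1, at 0.08 each, where the Slc10a1 profile itself varied by 0.48 around its mean. For Slco1a1 they were Sult2a8 and Scrn1, at 0.15 and 0.16 against 0.88. Scrn1 was dim at 24 h, averaging 3.29 in null-labelled liver and 3.76 in wild type, where the level for testing was 3.60. For Abcb11 they were Car8 and Tk1, at 0.14 and 0.15 against 1.10. Tk1 averaged 6.07 in null-labelled liver at 24 h, against 6.89 in null-labelled liver at 0 h, and 4.13 in wild type at 24 h, against 6.80 in wild type at 0 h. For Abcc2 they were Zbtb7c and St8sia6, at 0.08 and 0.09 against 0.27.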

How the data were processed

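The deposited table holds 1 value per probe set and array for 8 arrays, as log2 intensities made by the authors. The algorithm and background step are not given in the sources used here, and probe positions were not used. Of 45101 probe sets, 64 controls were left out. Values were quantile normalised, probe sets above 3.60 (the 40th percentile) on at least 2 arrays were kept, and the brightest probe set with 1 symbol stood for each gene. limma 3.58.1 in R 4.3.3 fitted 4 group means, with two-sided moderated tests and Benjamini-Hochberg adjustment over 14450 genes, or over 30525 probe sets. ± is the standard error. The script was tested on simulated data. The number of arrays limits the precision. Symbols came from the platform annotation, where 34945 probe sets had 1 symbol, 932 several and 9160 none. The 10 genes and the gene lists were chosen with earlier results of these data known. The genes named outside the 10 are, per list, up to 4 with the smallest p among those called after hepatectomy, plus Nr1h4, Nr0b2, Nr1i3 and Hnf4a. Another gene is not reported here. Alternatives changed the scaling, filter, probe set choice, prior, samples and replicate block.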

Additional observations from a re-analysis of the deposited data

How the results depend on the processing

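Averaged over genotypes, the 4 falls numbered 3 to 6 calls under the 17 alternatives (3 to 5 without any 1 array), with Slc10a1, Slco1a1 and Abcb11 called in all 17 and Abcc2 in 5. The 3 calls in null-labelled liver became 1, Slco1a1, with median centring, without a filter, with the mean of a gene's probe sets, and with the replicate block, and 0 with only the groups compared. They became 0 to 4 without any 1 array. The 3 calls in wild type became 1, Slco1a1, with the replicate block, 0 with only the groups compared, and 0 to 3 without any 1 array. Calls over all genes fell likewise, in null-labelled liver to 903 of 14450 with the replicate block and 0 with only the groups compared, against 2121, and in wild type to 332 and 2, against 1331. The labels do not say that replicate numbers pair the pools, and same-numbered deviations correlated at −0.197 between the genotypes at 24 h and −0.110 at 0 h. A crossed replicate block, chosen after seeing the data, gave 1 call in null-labelled liver and 2 in wild type. Both genotype comparisons and the difference between the responses kept 0 member calls under every alternative run. No called response of a member changed sign under any of them. Median centring moved the median of all genes to 0.12 in the null-labelled response, 0.14 in the genotype difference at 24 h and 0.12 in the difference between the responses, and split the null-labelled calls into 1245 higher and 469 lower, against 1076 and 1045. The averaged response was not refitted with only the groups compared, since it uses all 4. Where an array was left out, its lone partner was assumed to vary like the other groups.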
